A study of Mus musculus with 8 samples.

Results

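The second step in a series of deletions at the mouse Kcnj2 and Sox9 locus was examined: the limb bud contact map of the mutant ∆BorC1-2 was set against that of ∆BorC1. The members were all pairs of 10 kb bins with both ends on chromosome 11 between 110920001 and 113030000 (mm9), from Kcnj2 to the right edge of the Sox9 domain. They numbered 21736 of the 172578 pairs in each map, or 12.6%. Pairs within a left flank (109010001 to 110600000, 12720 pairs) and within a right flank (113350001 to 114880000, 11781 pairs), where no edit is named, served as background. The 3 bins from 111380001 to 111410000, at the deleted boundary, were left out.

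The assay was capture Hi-C: crosslinked DNA is cut, religated and enriched for a chosen region (6 Mb around Sox9), so that read pairs count which places lay close together. The tissue was forelimb and hindlimb buds of E12.5 embryos, with the buds of 3 to 8 embryos pooled per condition. Both genotypes were homozygous mutants on a background of G4 embryonic stem cells, both carried the deletions that the labels call Bor and C1, and only ∆BorC1-2 is labelled with C2 as well. Values of the further deletions ∆BorC1-4 and ∆CTCF are given beside them. The wildtype map was not analysed here, so each value is relative to a map that already lacked the boundary. The labels do not place C1 or C2 in the genome, and do not say how many lines each genotype was taken from. Each genotype had 1 library, so no test of a genotype was possible. All intervals in brackets are 95% intervals for counting error alone, from raw contacts taken as independent.

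CTCF is a zinc finger protein that binds a directional DNA motif and halts the cohesin complex as it extrudes chromatin loops. Sites that halt loops in facing orientation appear in contact maps as dots of raised contact, and clusters of them mark the borders of topologically associating domains. The product of Sox9 is a transcription factor on which cartilage cells depend, and much of its regulation comes from a long gene desert on the side toward Kcnj2. Kcnj2 encodes an inward rectifier potassium channel and occupies the neighbouring domain.

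The map of ∆BorC1 held 4901143 raw contacts and that of ∆BorC1-2 held 6409072, 1.31 times as many. The locus took 37.7% of the first (37.6 to 37.7) and 36.8% of the second (36.7 to 36.8). Contacts more than 20 kb apart made up 65.4% and 65.5%. The bin at 111390001 was nearly empty in both, with 4 contacts in ∆BorC1 and 0 in ∆BorC1-2, where a median locus bin had 18916.5 and 24162. A count of 0 allows up to 3 contacts. The maps of ∆BorC1-4 and ∆CTCF held 9045698 and 4449078 contacts.

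Most of the locus differed little between the genotypes, and the larger differences were gathered on a few rows of the map. Values are distance-normalised contacts: the sum of balanced contacts over the sum expected from that library's own mean at each distance, so 1 is the average for the distance. In blocks of 50 kb, 861 pairs of the locus had at least 100 raw contacts in each library. Their log2 ratio of ∆BorC1-2 over ∆BorC1 had a median of -0.01 and an SD of 0.16, where counting error alone gives 0.07. In the flanks 844 block pairs had a median of 0.01 and an SD of 0.11 with 0.09 from counting. A pair was called different past 0.3 on the log2 scale, a 1.23-fold difference, in either direction. This held for 39 locus pairs (4.53%), 12 of them higher (1.39%) and 27 lower (3.14%) in ∆BorC1-2. In the flanks it held for 16 pairs (1.9%), with 7 higher (0.829%) and 9 lower (1.07%). The locus holds more distant pairs than the flanks, and at matched distances the shares were closer. From 500 to 1000 kb, 12 of 275 locus pairs (4.36%) and 10 of 315 flank pairs (3.17%) were called, with 4 and 5 of them higher. From 1000 kb on, 22 of 253 locus pairs (8.70%) and 4 of 70 flank pairs (5.71%) were called. From 250 to 500 kb it was 5 of 175 (2.86%) and 1 of 235 (0.426%). Where the called pairs lay is therefore described below, and their number alone is not read as a difference from the flanks.

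The split by direction depended on the scaling. Raw counts gave 7 higher and 39 lower locus pairs, so 15.2% of those called were higher in place of 30.8%, and in the flanks 17 higher and 3 lower. Raw counts thinned to equal depth gave 6 higher and 42 lower in the locus and 21 higher and 3 lower in the flanks. With the expected contact taken from the flanks alone, 45 locus pairs were higher and 30 lower, a share of 60.0%. Of those 45 pairs 41 were at least 1 Mb apart, where the flanks hold few pairs. Under 1 Mb that scaling gave 4 higher and 17 lower, against 5 and 12 with the map's own mean. No scaling changed which direction prevailed under 1 Mb.

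Most of the lower pairs lay on a stripe that ran from a place in the desert to Sox9 and beyond it to the domain edge. That place is the bin at 111760001 to 111770000, called the desert site here, which lies 0.84 Mb right of Kcnj2 and 0.88 Mb left of Sox9. Of the 27 lower pairs, 19 joined 1 of the 5 blocks that start from 111.67 to 111.87 Mb to a block from 112.62 Mb on, the block that holds Sox9. Only 40 pairs of this kind were tested. The 5 blocks are the run around the site that held lower calls, with none in the blocks at 111.62 and 111.92 Mb. The counts and median of this group therefore describe where the calls lie and are no separate evidence. Their median log2 ratio was -0.28, 39 of the 40 were below 0 and none was called higher, beside a median of -0.01 over all 861 pairs. The lowest pair, 111.77 with 112.97 Mb, had 2.99 times the expected contact in ∆BorC1 (951 contacts) and 2.07 in ∆BorC1-2 (819 contacts), in the deeper map. Its log2 ratio was -0.53 (-0.66 to -0.39). ∆BorC1-4 had 2.21 and ∆CTCF 2.29 there, so both stood near ∆BorC1-2 and below ∆BorC1. Over the 844 flank block pairs the ratio ran from -0.63 to 0.43, so a flank pair went lower still. Over the 70 flank pairs from 1000 kb on it ran from -0.48 to 0.28.

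The next lowest pairs had the same ends. The pair 111.77 with 112.92 Mb stood at 2.18 in ∆BorC1 and 1.54 in ∆BorC1-2, a log2 ratio of -0.50 (-0.65 to -0.36). The pair 111.72 with 112.92 Mb stood at 2.17 and 1.55 (-0.48), and 111.67 with 112.82 Mb at 1.84 and 1.34 (-0.46). The block that begins just right of the desert site, 111.77 Mb, stood with the Sox9 block (112.62 Mb) at 2.73 and 2.06 (-0.40). These pairs were picked by the ratio itself, so their sizes describe the extremes and are no separate evidence.

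Of the other 8 lower pairs, 7 also had their second end at or beyond Sox9, so that 26 of the 27 did. Among them were 112.42 and 112.47 Mb with 112.72 Mb, at -0.35 and -0.32, and 112.47 with 112.82 Mb at -0.35, all desert blocks near Sox9 paired with blocks beyond the gene. The block of Kcnj2 with 112.77 Mb stood at 2.44 in ∆BorC1 and 1.91 in ∆BorC1-2, a log2 ratio of -0.35 (-0.53 to -0.17). The exception was 111.77 with 112.22 Mb, within the desert, at -0.33 (-0.46 to -0.20).

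**Figure D1:**
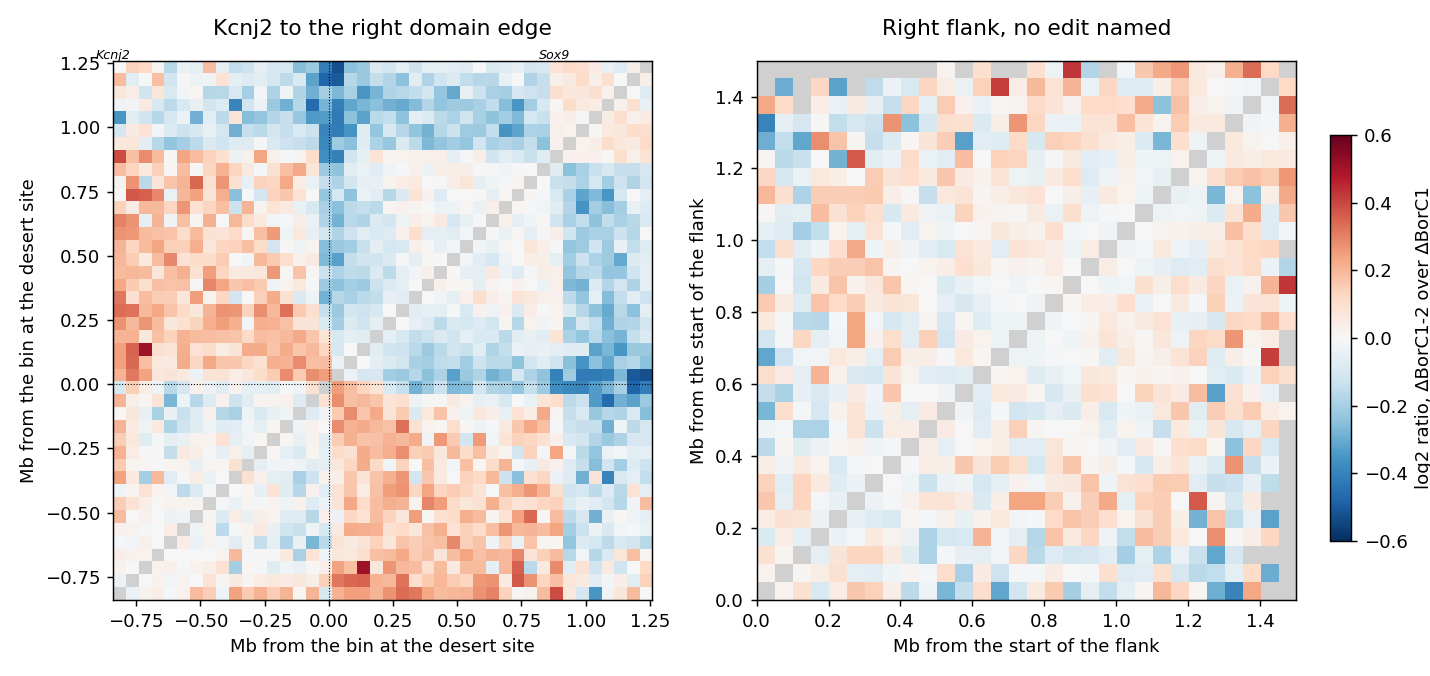
Log2 ratio of distance-normalised contact, ∆BorC1-2 over ∆BorC1, for pairs of 50 kb blocks in the locus (left, both axes in Mb from the bin at the desert site, dotted lines) and in the right flank (right, Mb from its start); red is higher in ∆BorC1-2, blue lower, and grey marks pairs that were not used. Blue pairs gather in a stripe right of and above the desert site up to the domain edge and in a band beyond Sox9, while red pairs fill the field between the Kcnj2 side and the desert right of the site.

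The higher pairs lay elsewhere: 11 of the 12 joined the Kcnj2 side, left of the deleted boundary, to a block right of it. There were 288 such pairs, of which 1 was called lower. The highest was 111.02 with 111.87 Mb, which stood at 0.95 in ∆BorC1 (423 contacts) and 1.35 in ∆BorC1-2 (713 contacts), a log2 ratio of 0.51 (0.33 to 0.68). ∆BorC1-4 had 1.11 and ∆CTCF 1.38. The next was the block of Kcnj2 with that of Sox9, at 2.82 and 3.69, a ratio of 0.39 (0.25 to 0.53). There ∆BorC1-4 had 3.35 and ∆CTCF 4.06. In 10 of the 12 pairs the left end was 1 of the first 3 blocks of the locus, those nearest Kcnj2. The first 4 blocks, which held the same 10 higher pairs, had 128 tested pairs with a second end right of the left-out bins. The 12th higher pair, 111.57 with 112.02 Mb at 0.33, spanned the desert site.

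Averaged over whole intervals, contact between the desert and the Sox9 side was lower and contact between the Kcnj2 side and the desert slightly higher. The Kcnj2 side ran from Kcnj2 to the left-out bins (0.46 Mb), the desert from there to the bin before Sox9 (1.23 Mb) and the Sox9 side from Sox9 to the edge (0.39 Mb). Desert with Sox9 side stood at 1.13 in ∆BorC1 and 0.995 in ∆BorC1-2, a log2 ratio of -0.18 (-0.19 to -0.17). ∆BorC1-4 had 1.00 and ∆CTCF 1.01. Kcnj2 side with desert stood at 1.11 and 1.18, a ratio of 0.09 (0.08 to 0.10), with 1.15 in ∆BorC1-4 and 1.29 in ∆CTCF. Contacts within an interval had ratios of 0.01 (Kcnj2 side), 0.00 (desert) and 0.04 (Sox9 side). Between 12 pairs of neighbouring 400 kb windows in the flanks the ratio ran from -0.03 to 0.05, so both differences lay outside that range. Those windows are nearer together than the far parts of these intervals, and flank spread grew with distance. The SD of flank block pairs was 0.07 at 50 to 250 kb and 0.16 from 1000 kb on. With raw counts Kcnj2 side with desert had 0.060, close to the upper end of the range above, which is from balanced values.

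The Kcnj2 side with the Sox9 side, the farthest intervals, stood at 2.11 in ∆BorC1 and 2.07 in ∆BorC1-2, a log2 ratio of -0.03 (-0.05 to -0.01). This ratio lay at the end of the flank range, but the flank windows are nearer together than these intervals and give no spread at this distance. Its sign turned to 0.17 with the expected contact taken from the flanks, which reach only 528 of its 1794 pairs. Over those same 528 pairs the ratio was -0.08 with the map's own mean. No direction is given for this interval pair.

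The desert was also split at the desert site, a division made after the map was seen. Higher contact with the Kcnj2 side lay in the right part only, while lower contact with the Sox9 side lay in both. The Kcnj2 side with the desert left of the site stood at 0.96 in ∆BorC1 and 0.95 in ∆BorC1-2, a log2 ratio of -0.01 (-0.03 to 0.00). With the desert right of the site it stood at 1.27 and 1.42, a ratio of 0.16 (0.15 to 0.17), while ∆BorC1-4 had 1.40 and ∆CTCF 1.51. The left and right parts of the desert with each other stood at 1.06 and 1.14, a ratio of 0.10 (0.09 to 0.11). The right part with itself stood at 0.99 and 0.97, a ratio of -0.04 (-0.05 to -0.03). The pairs of intervals with the highest ratios thus both spanned the desert site. The Sox9 side was lower with both parts of the desert: 1.98 and 1.78 with the left part, a ratio of -0.15 (-0.17 to -0.13), and 1.00 and 0.88 with the right part, a ratio of -0.19 (-0.20 to -0.17).

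How many contacts pass over a position, up to 200 kb on each side, was expressed as an insulation score, the log2 of their mean over the library's mean, which is low where few pass. Its difference, ∆BorC1-2 minus ∆BorC1, was highest at the desert site, where the score was -0.20 in ∆BorC1 and 0.01 in ∆BorC1-2, 0.21 higher. ∆BorC1-4 had -0.03 and ∆CTCF -0.06. Over 234 flank positions the difference ran from -0.08 to 0.08, and 13 neighbouring positions from 111.69 to 111.81 Mb lay above that range. The dip that ∆BorC1 had at the desert site was thus absent from the ∆BorC1-2 score.

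The score was lower in ∆BorC1-2 at other places. The largest difference of this direction was -0.20 at Sox9 (112.64 Mb), with scores of -1.0 and -1.20, while ∆BorC1-4 had -1.16 and ∆CTCF -1.21. There 11 positions from 112.57 to 112.67 Mb lay below the flank range. The rise of 0.21 and this decrease were of like size, and which was larger depended on the processing. With raw counts the largest rise was 0.14 and the largest decrease -0.22, while with a 100 kb window they were 0.24 and -0.17. A second run of 18 positions from 111.90 to 112.07 Mb reached -0.14 at 111.95 Mb, where ∆BorC1 had -0.09 and ∆BorC1-2 -0.23, and ∆BorC1-4 had -0.10 and ∆CTCF -0.13. Another run of 6 positions from 110.92 to 110.97 Mb, at Kcnj2, reached -0.15. There ∆BorC1 had -0.55 and ∆BorC1-2 -0.70, with -0.58 in ∆BorC1-4 and -0.80 in ∆CTCF. At 111.95 Mb and at Kcnj2 the score of ∆BorC1-4 was thus nearer to ∆BorC1 than to ∆BorC1-2.

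Read bin by bin, the ratio at the desert site had opposite signs on its left and right sides. Each bin's contacts with the rest of the locus were summed to its left and to its right. To the right, bin 111.75 Mb had a log2 ratio of -0.09 (-0.13 to -0.05), while bin 111.76 Mb had -0.26 (-0.31 to -0.21) and bin 111.77 Mb -0.28 (-0.32 to -0.23). Bin 111.77 Mb stood at 1.16 in ∆BorC1 and 0.96 in ∆BorC1-2, with 1.04 in ∆BorC1-4 and 0.97 in ∆CTCF. The flank bins ran from -0.16 to 0.15 on this measure, so bins 111.76 and 111.77 Mb lay below all 281 of them. To the left the same bins were higher, at 0.12 for 111.76 Mb and 0.19 for 111.77 Mb, and the highest was 111.82 Mb at 0.20 (0.15 to 0.25). The flank bins ran from -0.17 to 0.15 to the left. With raw counts bin 111.82 Mb had 0.11, which lies within that range, but the range is from balanced values.

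A second step of smaller size lay just right of Sox9. To the left, bin 112.67 Mb had a log2 ratio of -0.19 (-0.23 to -0.14), just under the flank range, and stood at 1.04 in ∆BorC1 and 0.91 in ∆BorC1-2. Its neighbour 112.66 Mb had -0.16 to the left and 0.13 to the right, both within the flank range. ∆BorC1-4 and ∆CTCF each had 0.92 at bin 112.67 Mb. A single bin on the Kcnj2 side, 111.22 Mb, had the lowest value to the left, -0.19 (-0.30 to -0.07), from 1143 contacts in ∆BorC1, fewer than the other named bins.

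**Figure D2:**
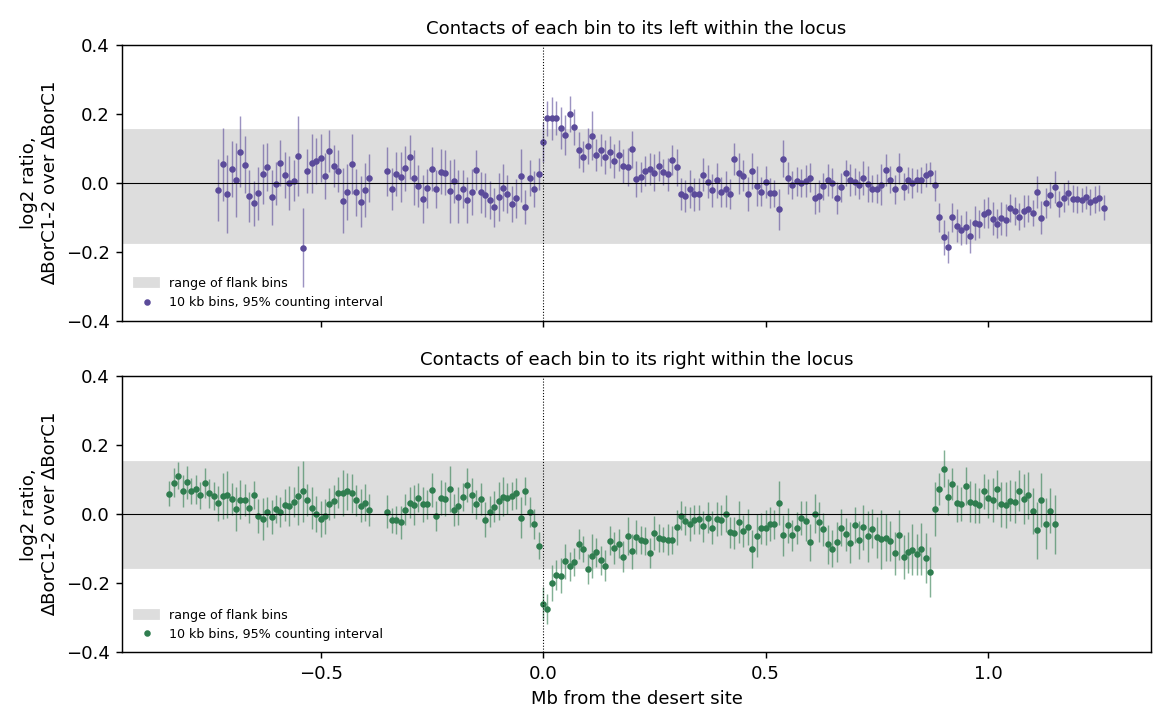
Log2 ratio of ∆BorC1-2 over ∆BorC1 for each 10 kb bin's summed contacts to its left (top) and right (bottom) within the locus, against distance from the desert site in Mb; bars are 95% counting intervals and the grey band is the range of the flank bins. Contacts to the right lie below the band at the site, with -0.26 and -0.28 in bins 111.76 and 111.77 Mb. Contacts to the left of the next bins lie above it, up to 0.20 at 111.82 Mb. With raw counts that value is 0.11, within the band, but the band is from balanced values.

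Seen from the desert site itself, in a window of 30 kb, contact was lower with the Sox9 side and the right part of the desert and higher with the left part. With the Sox9 side the window stood at 2.18 in ∆BorC1 and 1.51 in ∆BorC1-2, a log2 ratio of -0.53 (-0.59 to -0.47). ∆BorC1-4 and ∆CTCF both had 1.62. With the right part of the desert it stood at 1.04 and 0.94, a ratio of -0.15 (-0.18 to -0.12), and with the left part at 0.85 and 0.93, a ratio of 0.13 (0.10 to 0.17). With the Kcnj2 side the ratio was 0.04 (-0.01 to 0.10), which was not detectable at this depth.

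Of the 24 blocks right of the window, 21 were lower by their counting interval and 16 were past -0.3, with a median of -0.40. These counts, like those of the views and scans below, have no flank share beside them. Spread between libraries adds to the counting error in them. Lower contact was not confined to Sox9: with block 112.37 Mb, within the desert, the window stood at 1.43 in ∆BorC1 and 1.02 in ∆BorC1-2. The blocks next to the site, 111.82 and 111.87 Mb, had ratios of 0.05 and 0.04. The 2 peaks of the ∆BorC1 profile, at the Sox9 block and at the last block before the domain edge, were also the blocks with the lowest ratio. The Sox9 block stood at 3.12 and 2.01 (-0.64), with 2.05 in ∆BorC1-4 and 2.12 in ∆CTCF. The last block stood at 3.38 and 2.16 (-0.64), with 2.25 and 2.33. Of the 16 blocks to the left 3 were higher by their interval and none was lower, with a median of 0.06.

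**Figure D3:**
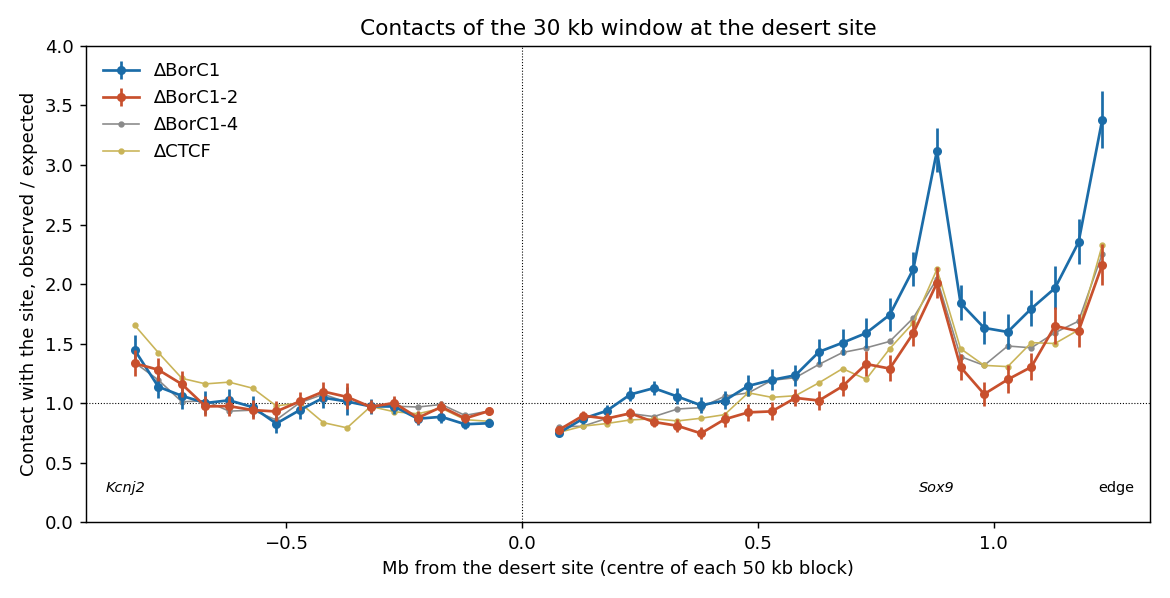
Distance-normalised contact (observed over expected) of the 30 kb window at the desert site with 50 kb blocks of the locus, against distance from the site in Mb, in the 4 deletion libraries; bars on ∆BorC1 and ∆BorC1-2 are 95% counting intervals and the dotted horizontal line is the average for the distance. The curve of ∆BorC1 runs above the other libraries at Sox9 and at the domain edge, at 3.12 and 3.38 against 2.01 and 2.16 in ∆BorC1-2. Left of the site the curves of ∆BorC1 and ∆BorC1-2 lie close together. ∆CTCF departs from ∆BorC1 there, with 1.65 against 1.45 at 110.92 Mb and 0.84 against 1.05 at 111.32 Mb.

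At the resolution of single bins, the contact of ∆BorC1 with Sox9 had a sharp maximum at the desert site that ∆BorC1-2 lacked. This scan over the 80 kb to either side was added after the data were seen. Bin 111.76 Mb stood at 4.56 times the expected contact with the 30 kb window at Sox9 in ∆BorC1 (244 contacts), between 3.15 at bin 111.75 Mb and 2.99 at bin 111.77 Mb. In ∆BorC1-2 it stood at 2.25 (150 contacts), and its neighbours at 2.16 and 2.06. The log2 ratio at the maximum was -1.02 (-1.31 to -0.72). ∆BorC1-4 had 2.12 and ∆CTCF 2.35, both close to ∆BorC1-2. Lower contact reached to bin 111.80 Mb, which had -0.45 (-0.76 to -0.14).

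The domain edge, the 3 bins from 113000001 to 113030000, also had its highest contact with bin 111.76 Mb in ∆BorC1. Bin 111.76 Mb stood at 5.32 in ∆BorC1 (165 contacts) and 2.38 in ∆BorC1-2 (91 contacts), a log2 ratio of -1.16 (-1.53 to -0.79). ∆BorC1-4 had 2.68 and ∆CTCF 2.94. Lower contact was spread more widely here: 16 of the 17 scanned bins were below 0 and 8 were lower by their interval, against 12 and 6 with Sox9. Bin 111.68 Mb had -0.41 (-0.77 to -0.06) with the edge and 0.45 (0.14 to 0.77) with Sox9. These values rest on few contacts, and the interval on each ratio is correspondingly wide.

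A second maximum, 60 kb to the right at bin 111.82 Mb, was present in all 4 libraries. With Sox9 it stood at 3.95 in ∆BorC1 and 3.52 in ∆BorC1-2, a log2 ratio of -0.17 (-0.41 to 0.07), with 2.98 in ∆BorC1-4 and 3.89 in ∆CTCF. With the edge it stood at 4.49 and 3.70, a ratio of -0.28 (-0.58 to 0.02), with 3.45 and 3.81. Neither difference exceeded counting error. Bin 111.82 Mb was the highest of the scanned bins in ∆BorC1-2, ∆BorC1-4 and ∆CTCF with both partners, whereas in ∆BorC1 the highest was bin 111.76 Mb. With Kcnj2, bin 111.82 Mb stood at 1.47 in ∆BorC1 and 2.10 in ∆BorC1-2, a ratio of 0.52 (0.18 to 0.86), and ∆BorC1-4 had 1.69 and ∆CTCF 2.67. It was 1 of 5 bins higher with Kcnj2 by their interval; 111.81 and 111.84 Mb had larger ratios, 0.65 (0.24 to 1.06) and 0.64 (0.27 to 1.00), and 111.68 and 111.69 Mb had 0.39 and 0.36. Bin 111.76 Mb had no such difference with Kcnj2, at 1.49 and 1.54.

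**Figure D4:**
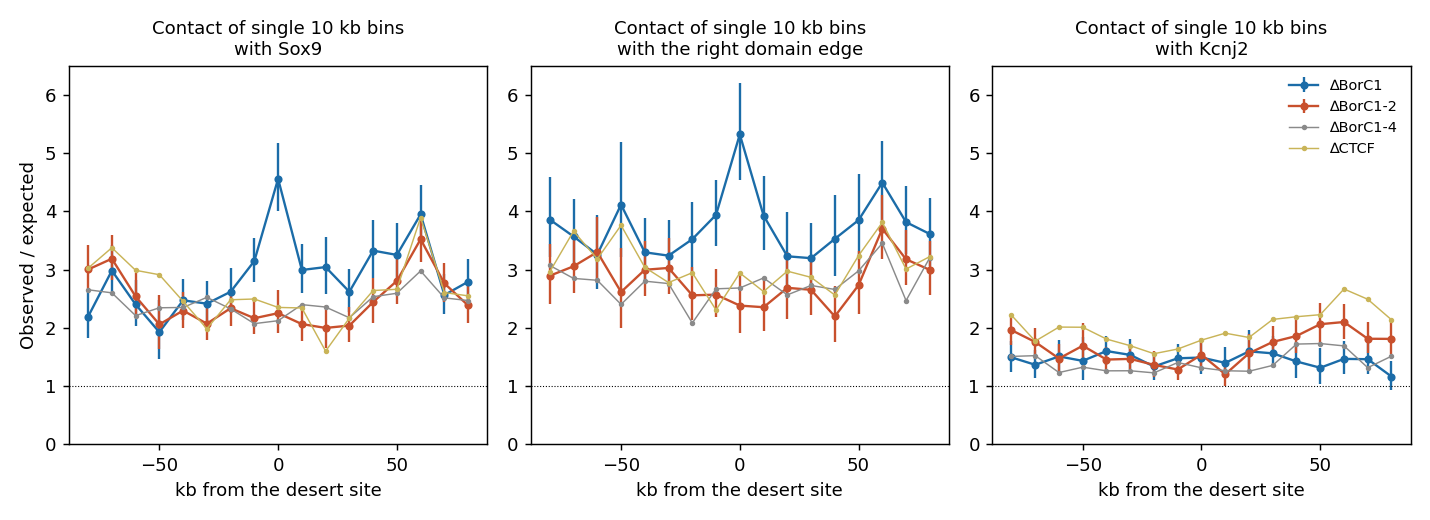
Distance-normalised contact (observed over expected) of single 10 kb bins, by distance in kb from the desert site, with 30 kb windows at Sox9, at the right domain edge and at Kcnj2; bars on ∆BorC1 and ∆BorC1-2 are 95% counting intervals. The maximum of ∆BorC1 at 0 kb, 4.56 with Sox9 and 5.32 with the edge, is missing in the other libraries, whose maximum with these partners is at 60 kb.

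Contacts between pairs of places, each a 30 kb window, gave the size of these differences at the genes. The desert site with Sox9 stood at 3.56 in ∆BorC1 (728 contacts) and 2.16 in ∆BorC1-2 (551 contacts), with 2.2 in ∆BorC1-4 and 2.39 in ∆CTCF. The log2 ratio was -0.72 (-0.88 to -0.56), 0.61 times the ∆BorC1 level. Among 490 window pairs in the flanks at 500 to 1000 kb, the ratio ran from -0.66 to 0.61, with 95% of them between -0.37 and 0.28. At this window size the difference thus lay below all of them. The desert site with the edge stood at 4.40 (511 contacts) and 2.43 (362 contacts), a ratio of -0.85 (-1.05 to -0.66), with 2.74 and 2.62 in ∆BorC1-4 and ∆CTCF. At its distance of 1.26 Mb only 7 flank window pairs could be used, which ran from -0.31 to 0.20. With 10 kb windows the ratios were -1.17 with Sox9 and -1.35 with the edge, and with 50 kb windows -0.54 and -0.58. Flank pairs of 50 kb blocks at 500 to 1000 kb ran from -0.63 to 0.43. With 50 kb windows the Sox9 ratio thus lay within the flank range.

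The desert site also had less contact with a second desert site, 0.3 Mb to its right at 112.06 Mb, which was known from earlier results of these data. This pair stood at 1.19 in ∆BorC1 and 0.82 in ∆BorC1-2, a log2 ratio of -0.53 (-0.69 to -0.37), with 0.89 in ∆BorC1-4 and 0.90 in ∆CTCF. Of 1307 flank window pairs at 30 to 500 kb the range was -0.59 to 0.54, so this difference lay within the range but below the central 95% of them (-0.27 to 0.24). With Kcnj2, the desert site stood at 1.45 and 1.34, a ratio of -0.12 (-0.32 to 0.08).

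The second desert site was not lower in its contact with Sox9 in ∆BorC1-2. It stood at 2.64 in ∆BorC1 and 2.91 in ∆BorC1-2, while ∆BorC1-4 had 1.83 and ∆CTCF 2.05. The ratio of ∆BorC1-2 over ∆BorC1 was 0.14 (0.02 to 0.27) and became 0.66 with 10 kb windows and 0.05 with 50 kb windows, so its size depended on the window. With the edge the site stood at 2.73 and 3.02, a ratio of 0.14 (-0.03 to 0.32). With Kcnj2 it was higher, at 1.47 and 2.08, a ratio of 0.49 (0.27 to 0.72), while ∆BorC1-4 had 1.52 and ∆CTCF 1.85. The higher contact with Kcnj2 was not confined to this site. In a like scan over 80 kb to either side, 8 of 17 bins were higher by their interval and 0 lower, with a median of 0.32. Bin 112.06 Mb itself had 0.38 (-0.05 to 0.81), and bins 112.11 and 112.12 Mb had 0.58 and 0.54.

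Kcnj2 and Sox9 themselves, 1.72 Mb apart across the deleted boundary, had more contact in ∆BorC1-2. The pair stood at 3.36 in ∆BorC1 (312 contacts) and 4.73 in ∆BorC1-2 (591 contacts), a log2 ratio of 0.49 (0.29 to 0.69). ∆BorC1-4 had 4.20 and ∆CTCF 5.66, so all 3 further deletions stood above ∆BorC1. No flank pair has this distance, so the spread between libraries at 1.72 Mb was not measured. Kcnj2 with the edge stood at 5.21 and 6.02, a ratio of 0.21 (0.01 to 0.40), with 4.81 in ∆BorC1-4. Sox9 with the edge stood at 2.90 and 2.98, a ratio of 0.04 (-0.07 to 0.15).

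The site at 111.31 Mb on the Kcnj2 side showed no difference beyond counting error with the desert site, the second desert site, Sox9 or the edge. Its contact with Sox9 stood at 3.35 in ∆BorC1 and 3.82 in ∆BorC1-2, a log2 ratio of 0.19 (-0.03 to 0.40), and with the edge at 4.45 and 4.59. With Kcnj2 it stood at 1.72 and 1.92, a ratio of 0.16 (0.01 to 0.30).

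**Figure D5:**
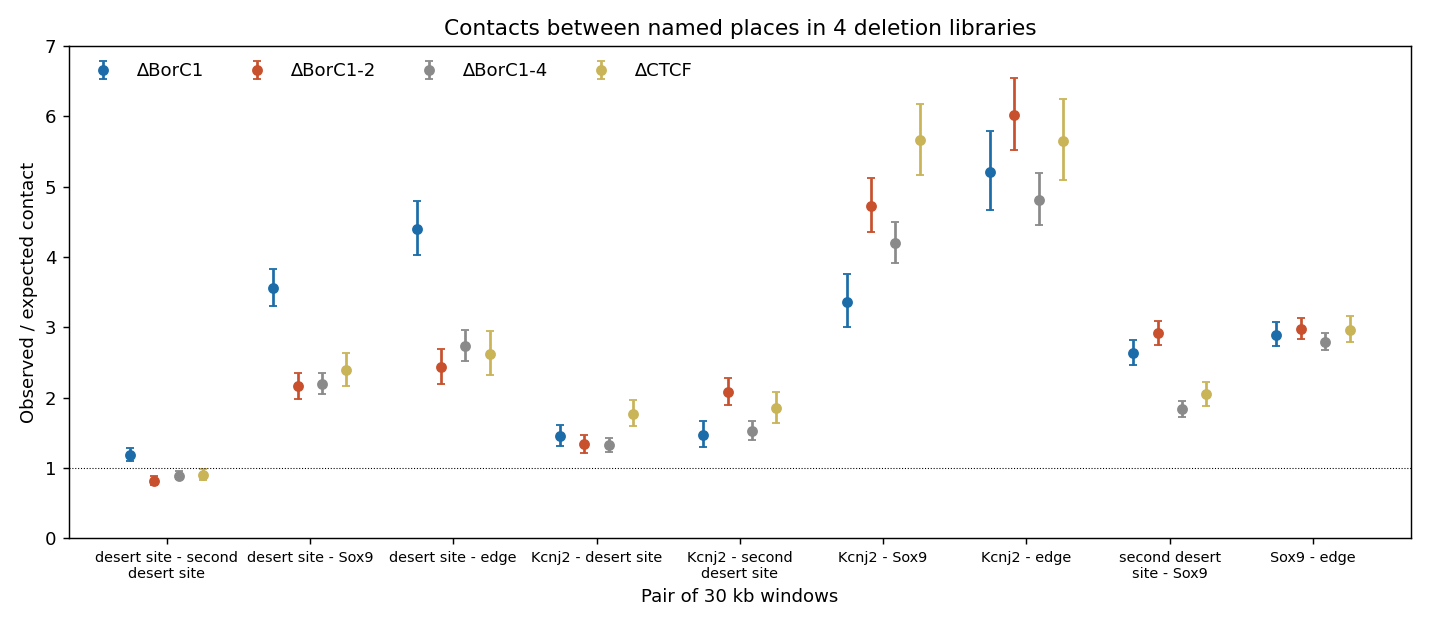
Distance-normalised contact (observed over expected) of 9 pairs of 30 kb windows in the 4 deletion libraries, with 95% counting intervals; the dotted line is the average for the distance. The desert site's contacts with Sox9 and the edge are highest in ∆BorC1 (3.56 and 4.40), while contact of Kcnj2 with Sox9 is lowest there (3.36).

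From Sox9, 5 of the 34 blocks to the left were lower by their interval and 8 were higher. The 30 kb Sox9 window with the whole desert stood at 1.26 in ∆BorC1 and 1.21 in ∆BorC1-2, a log2 ratio of -0.06 (-0.08 to -0.03). Blocks 111.72 and 111.77 Mb stood at 3.05 and 2.22 (-0.46) and at 3.05 and 2.27 (-0.42), the only 2 of those blocks past -0.3. The other lower blocks lay nearer to Sox9, 112.37 Mb at -0.14 (-0.25 to -0.03), 112.47 Mb at -0.18 (-0.29 to -0.07) and 112.52 Mb at -0.18 (-0.30 to -0.07). The blocks on either side of the 2 lowest, 111.67 and 111.82 Mb, had ratios of 0.18 (0.03 to 0.33) and -0.09 (-0.20 to 0.02). Past 0.3 were 5 blocks, of which 111.47 Mb lay within the desert, at 0.32 (0.15 to 0.49). Another desert block, 111.92 Mb, had 0.15 (0.03 to 0.28). With the Kcnj2 side the Sox9 window stood at 2.32 and 2.76, a ratio of 0.25 (0.19 to 0.32), and ∆BorC1-4 and ∆CTCF had 2.70 and 2.89. The ratio was 0.40 with the flanks' expected contact and 0.18 with a 50 kb window, so its size depended on the processing. Beyond the deleted boundary, contact of Sox9 was thus higher in ∆BorC1-2.

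From Kcnj2, contact was higher along most of the desert. The 30 kb Kcnj2 window with the desert stood at 1.51 in ∆BorC1 and 1.75 in ∆BorC1-2, and ∆BorC1-4 had 1.55 and ∆CTCF 2.03. The log2 ratio of ∆BorC1-2 over ∆BorC1 was 0.21 (0.18 to 0.24). Of the 41 blocks from 110.97 to 112.97 Mb, which include both sides of the desert, 20 were higher by their interval and 2 lower, with a median of 0.17. The higher ones included 111.22 and 111.27 Mb on the Kcnj2 side, at 0.24 and 0.13. The 2 lower ones, 111.02 and 112.77 Mb, lay outside the desert, at -0.11 and -0.25. The largest values were at the Sox9 block (3.13 and 4.17, a ratio of 0.41) and at 112.37 Mb (1.62 and 2.12, 0.39), while block 111.72 Mb, which holds the desert site bin, had -0.07. With its own side as a whole the Kcnj2 window did not differ beyond counting error, at 0.92 and 0.91.

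Coverage showed no bin lost in ∆BorC1-2 alone. The lowest ratio of bin coverage in the locus was at 111.77 Mb, where ∆BorC1-2 had 0.928 times the share of ∆BorC1. Counting only pairs at least 100 kb apart, the lowest bin was 111.76 Mb, with 10463 contacts in ∆BorC1 and 11526 in ∆BorC1-2, a log2 ratio of -0.24. Contacts within bin 111.76 Mb numbered 1028 and 1551, a ratio of 0.24, and those within bin 111.78 Mb 959 and 1051, a ratio of -0.22, where the SD over locus bins was 0.10. A deletion much shorter than 10 kb would not be resolved by these counts, so they do not place C2.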

How the data were processed

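Capture Hi-C maps of E12.5 limb buds were used for 4 of the 8 libraries, ∆BorC1 and ∆BorC1-2 with ∆BorC1-4 and ∆CTCF beside them; the others were not used here. Per the submitters' processing notes, the authors used Bowtie2 2.2.6 and Juicer with build mm9. How reads were filtered is not given in the sources used here. In the deposited raw maps each value counts the read pairs that join 2 bins of 10 kb (counts, not normalised). The authors balanced these (the deposited files name KR), which gives a signal whose total stays near the raw total. Values that were not a number (4 for ∆BorC1, 0 for ∆BorC1-2, 7 for ∆BorC1-4, 1 for ∆CTCF) were left out.

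Balanced values were summed over pairs and divided by the sum of the library's mean at each map distance, with pairs that are not listed taken as 0; the deletions were not subtracted from distances. Interval pairs used pairs at least 20 kb apart and blocks were at least 50 kb apart. Exact Poisson intervals were used for levels, log-normal ones for ratios and Clopper-Pearson ones for shares. Flank spread describes how these libraries differ without a named edit and is not replicate error. The bins of Sox9 and Kcnj2 were taken as those starting at 112640001 and 110920001 from general knowledge of mm9; no mm9 annotation was used. Named were the places, the 10 highest and 10 lowest block pairs with at least 100 contacts, the extreme insulation positions, and the 5 highest and 5 lowest bins per profile and of coverage, of which those that matter are given. Blocks in the views from windows, neighbouring bins and the scan were named after their values were seen. The members, places and lists were chosen with earlier results of these data known. Scripts ran under Python 3.11.15 with scipy 1.17.1, matplotlib 3.10.9, pandas 2.3.3 and numpy 2.4.6, and were tested on simulated data. Alternatives changed the values, expected contact, depth, windows, blocks, minimum contacts, threshold, distance and bins left out.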

Additional observations from a re-analysis of the deposited data

How the results depend on the processing

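Of 102 alternative values for 24 results, 59 kept their call or stayed within counting error, 42 moved and 1 reversed; the cause of the moves was not tested. The reversal was Kcnj2 side with Sox9 side, 0.17 with the flanks' expected contact. Its raw value was -0.049. The count of called locus pairs, 39, became 75 with the flanks' expected contact, 3 past 0.5, 240 with blocks of 30 kb and 3 with blocks of 100 kb. The flank count, 16, became 1 past 0.5, 27 with at least 50 contacts, 6 with at least 200, 75 with blocks of 30 kb and 0 with blocks of 100 kb. More pairs (2350 in the locus) with fewer contacts each are tested in smaller blocks. With raw counts and with thinned raw counts, the Kcnj2 side with itself became -0.031 and -0.031, Kcnj2 side with desert 0.060 and 0.060, desert with itself -0.051 and -0.053, desert with Sox9 side -0.20 and -0.20, and the Sox9 side with itself 0.027 and 0.030. The flanks' expected contact gave 0.074 for Kcnj2 side with desert, -0.010 for the desert with itself and -0.19 for desert with Sox9 side, and pairs at least 100 kb apart gave 0.064 for the Sox9 side with itself.

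The insulation rise of 0.21 became 0.14 with raw counts, 0.14 with thinned raw counts, 0.24 with a 100 kb window and 0.15 with a 400 kb window. The decrease of -0.20 became -0.17 (100 kb) and -0.16 (400 kb), and it was -0.22 with raw and with thinned raw counts. Raw counts gave 0.11 for bin 111.82 Mb to the left, -0.37 for bin 111.77 Mb to the right and -0.083 for Sox9 with the desert. Sox9 with the Kcnj2 side became 0.40 with the flanks' expected contact and 0.18 with a 50 kb window. The desert site with Sox9 became -1.17 (10 kb window) and -0.54 (50 kb), and with the edge -1.35 and -0.58. The second desert site with Sox9 became 0.66 with a 10 kb window. The coverage ratio at 111.77 Mb, -0.11, became -0.15 without the diagonal and its neighbour and -0.22 with pairs at least 100 kb apart. The flanks' expected contact could not be had for Kcnj2 with Sox9 or with the Sox9 side, which lie farther apart than the flanks reach. No paired analysis was possible because each genotype had 1 library. Depth limits single 10 kb pairs, whose SD in the locus was 0.36 with 0.35 from counting, and pairs over 1 Mb apart, with a median of 20 contacts in ∆BorC1.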
